A study of Mus musculus with 27 samples.

Results

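Fibrotic-like periportal liver assembloids were compared with homeostatic ones after 18 days (2.5 weeks) of culture by bulk RNA sequencing, with 3 libraries per group. These libraries, labelled Fibrosis-like assembloid and Homeostasis assembloid, were 6 of the 27 of the series, and only they entered the fit of the comparison. An assembloid here is a mouse liver co-culture in which 10 hepatocyte organoids, 1000 cholangiocytes dissociated from ductal organoids and sorted portal mesenchymal cells were aggregated and embedded in Matrigel. The homeostatic mixture received 250 mesenchymal cells and the fibrotic-like mixture 2500, and the number of mesenchymal cells was the variable that separated the groups. All 6 libraries carried the labels C57BL/6, WT and MM media, a minimal medium that held Wnt-conditioned medium and a ROCK inhibitor. As the study's methods describe the cells, the mesenchyme was PDGFRα+ SCA1+ and came from reporter mice with a nuclear GFP driven by the Pdgfra locus, and cholangiocytes came mostly from nuclear tdTomato mice. No endothelial or immune cells were added, which limits the mixture as a model of a fibrotic liver. The labels number the replicates without tying them to animals, so p-values measure the spread between these libraries, which may be technical.

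In the liver, the bile duct of the portal tract is lined by cholangiocytes and wrapped by portal mesenchyme, a set of PDGFRα+ fibroblasts that make collagen and elastic fibres and send growth factors and chemokines to the duct. In biliary fibrosis these cells multiply and deposit fibrillar collagen, which lysyl oxidases crosslink and matrix metalloproteinases, held in check by TIMPs, degrade. Hepatocytes, the third cell type in the mixture, secrete plasma proteins and make bile acids.

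The libraries held 32890407 to 59689299 counts each and 14014 to 16016 detected genes. Correlations of log2 CPM (a count relative to its TMM-scaled library size) across genes ran from 0.954 to 0.975 between homeostatic libraries and from 0.892 to 0.947 between fibrotic-like libraries. Fibrotic-like replicate 2 stood apart. Its 50 most counted genes took 21.7% of its counts against 38.8% to 46.3% in the other 5 libraries, and it had the lowest hepatocyte and the highest keratin counts, so results that touch those cells are given with and without it. Markers of cell types that were not added stayed close to 0. Only 3 of 14 endothelial and 4 of 15 immune markers had enough counts to be tested, and their summed levels were 3.42 to 6.85 and 4.91 to 5.74 CPM in the homeostatic and 5.67 to 11.1 and 7.28 to 16.7 CPM in the fibrotic-like libraries. Among immune markers, Lyz2, a lysozyme of macrophages, was called higher (log2 fold change 4.07 ± 0.58 (SE), adjusted p = 0.0154), while Clec4f, Tyrobp, C1qa, C1qb and Vsig4 had 0 counts in all 6 libraries.

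Of 13355 genes tested, 727 (5.44%) were higher and 11 (0.0824%) lower in fibrotic-like than in homeostatic assembloids by edgeR's quasi-likelihood test at an adjusted p under 0.05. The higher genes included Col3a1, Mmp3, Thbs2 and Ccl11, and the lower ones Apoa5, Pigr and Leap2. Of the called genes 611 were in none of the gene lists described below. On the same 6 libraries DESeq2 called 1766 higher and 385 lower, and counts of called genes below are edgeR's unless another tool is named. The genes called higher differed by 0.73 to 11.68 on the log2 scale with a median of 3.09, the highest being a fitted value for Olfm4, and 383 of them by more than 3. Over all genes tested the median was 0.04, and 53.1% had a positive log2 fold change. In 22.2% of genes all 3 fibrotic-like libraries lay above all 3 homeostatic ones and in 15.9% all 3 lay below. The number called depended on single libraries. It was 142, 100 and 156 higher and 0 lower without homeostatic replicate 1, 2 and 3, and 727, 575 and 211 higher with 52, 34 and 0 lower without fibrotic-like replicate 1, 2 and 3. When the 6 libraries of 1 week shared the estimate of spread, 0 genes were called by edgeR, with 944 at an unadjusted p under 0.05, and DESeq2 called 271 higher and 2 lower on those 12 libraries.

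**Figure D1:**
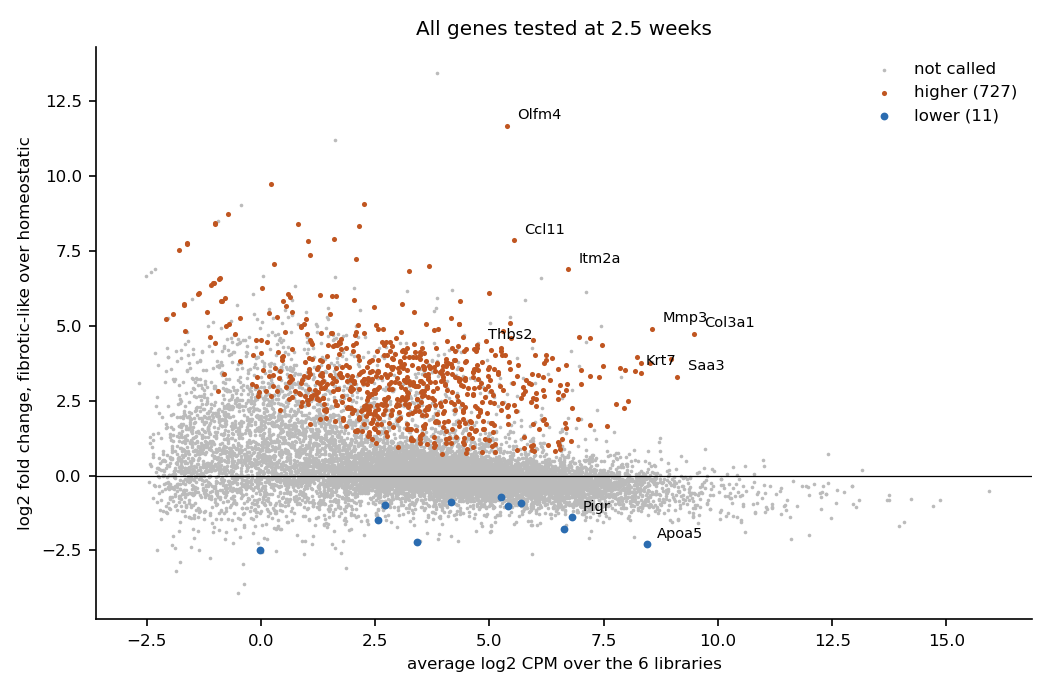
Log2 fold change (fibrotic-like over homeostatic) of each of the 13355 genes tested at 2.5 weeks against its average log2 CPM over the 6 libraries, with 727 genes called higher in orange, 11 called lower in blue and the rest in grey. The called genes lie almost all above the line at 0, and Ccl11, Itm2a, Mmp3 and Col3a1 stand out among those with many counts.

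The mesenchymal compartment was checked first, since the groups differed in the number of these cells plated. Pdgfra, the PDGF receptor used to sort them, was at 1.94, 1.49 and 4.41 CPM in homeostatic replicates 1, 2 and 3 and at 20.8, 77.9 and 76.3 CPM in fibrotic-like replicates 1, 2 and 3, an order in which all values below are given. The groups did not overlap, and homeostatic replicate 3 was the highest of its group (log2 fold change 4.49 ± 0.67 (SE), adjusted p = 0.0175). Pdgfrb, the second PDGF receptor of fibroblasts and mural cells, was at 1.88, 2.62 and 2.39 against 24.0, 56.5 and 42.8 CPM (log2 fold change 4.16 ± 0.36 (SE), adjusted p = 0.00481). Ly6a, which encodes the sorting marker SCA1, was at 26.4, 27.9 and 19.6 against 83.1, 213 and 239.9 CPM (log2 fold change 2.86 ± 0.42 (SE), adjusted p = 0.0162). Both rose in every fibrotic-like library, with replicate 1 the lowest of them. In bulk RNA a change in the number of cells of a type and a change in RNA per cell cannot be told apart.

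Of 20 portal mesenchyme markers tested, 11 were higher, none was lower and the median log2 fold change was 3.50, which is 11.3-fold beside a 10-fold difference in mesenchymal cells plated. Their summed level rose less, from 352, 396 and 528 to 1121, 2390 and 2558 CPM, so the fold depends on the summary used. For 17 of the markers all fibrotic-like libraries lay above all homeostatic ones, against 22.2% of all genes tested. The called markers included Dcn, the collagen-binding proteoglycan decorin (3.77), Lum, its relative lumican (3.06), Prrx1, a homeobox factor of fibroblasts (3.87), and the elastic-fibre genes Fbln1 (5.06) and Fbln2 (3.54). Vim, the intermediate filament vimentin, had a log2 fold change of 2.01 (adjusted p = 0.0908), and Gas6, the ligand of AXL, one of 0.81 (adjusted p = 0.266). Called markers numbered 4, 3 and 5 without homeostatic replicate 1, 2 and 3 and 12, 10 and 4 without fibrotic-like replicate 1, 2 and 3. Markers of stellate and vascular mural cells moved too, with 5 of 12 higher (Ngfr, Hand2, Ecm1, Kcnj8 and Abcc9) and a median of 2.72, and their part in the mesenchymal result was not tested. Calls among these 12 numbered 0, 1 and 1 without homeostatic replicate 1, 2 and 3 and 3, 4 and 0 without fibrotic-like replicate 1, 2 and 3.

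The reporters varied widely within each group. Counts of the eGFP sequence, which mark cells from the Pdgfra reporter mice, were 0.466, 0.702 and 26.6 CPM in the homeostatic and 11.9, 38.2 and 180.1 CPM in the fibrotic-like libraries (log2 fold change 3.07 ± 1.68 (SE), adjusted p = 0.290). Homeostatic replicate 3 exceeded fibrotic-like replicate 1. The tdTomato counts of the cholangiocytes were 1.67, 1.11 and 69.1 against 5.39, 30.9 and 80.1 CPM (log2 fold change 0.70 ± 1.58 (SE), adjusted p = 0.798), again with overlap. GFP per Pdgfra was 0.240, 0.471 and 6.02 in the homeostatic and 0.574, 0.490 and 2.36 in the fibrotic-like libraries, so libraries of both groups held Pdgfra transcripts with little GFP.

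**Figure D2:**
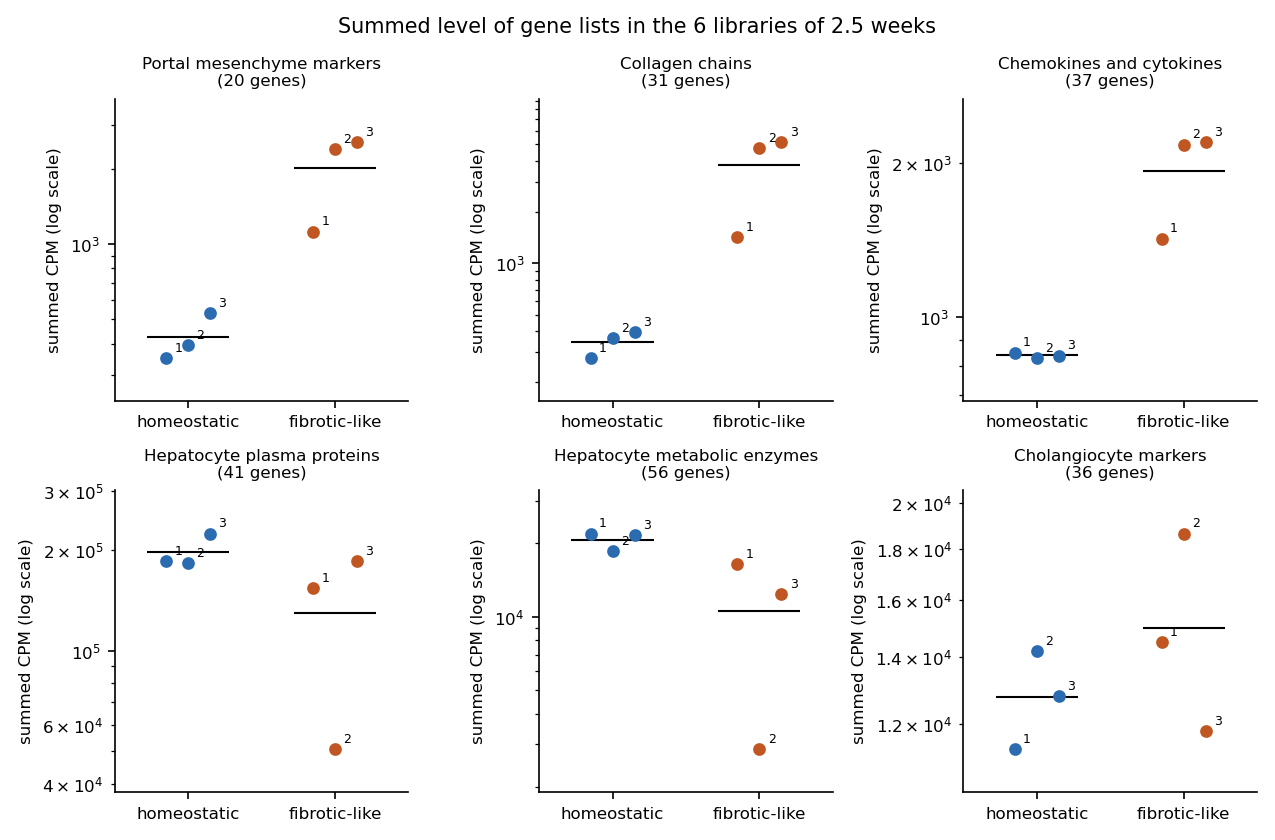
Summed CPM (log axis) of 6 gene lists in each library of 2.5 weeks, with homeostatic libraries in blue, fibrotic-like ones in orange, replicate numbers beside the points and a bar at the mean of each group. Mesenchyme markers, collagen chains and chemokines and cytokines do not overlap between the groups, and hepatocyte lists are lowest in fibrotic-like replicate 2. The summed cholangiocyte markers, which include abundant secreted or mucin genes, overlap.

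Collagen chain genes formed one of the largest blocks of the difference. Col1a1 (chr11:94827050-94843868, GRCm39), the α1 chain of type I collagen, the main fibre of scar tissue, was at 51.7, 69.8 and 69.8 CPM in homeostatic and 334, 1309 and 1172 CPM in fibrotic-like libraries. All fibrotic-like values were above all homeostatic ones, and fibrotic-like replicate 1 was the lowest of the 3 (log2 fold change 3.88 ± 0.54 (SE), adjusted p = 0.0149). Col1a2, the partner chain, was at 27.7, 40.8 and 38.8 against 194, 622 and 864 CPM (log2 fold change 3.97 ± 0.57 (SE), adjusted p = 0.0154). Col3a1 (chr1:45350698-45395840), the type III chain that co-assembles with type I collagen, was at 42.5, 66.7 and 45.3 against 418, 1665 and 2048 CPM (log2 fold change 4.74 ± 0.65 (SE), adjusted p = 0.0136). For all 3 genes fibrotic-like replicate 1 was the lowest of its group and still above every homeostatic library.

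Of 31 collagen chains tested, 13 were higher and none lower, with a median log2 fold change of 2.49. Among 9 fibrillar chains 5 rose, including Col5a1 (4.16) and Col5a2 (3.75), the type V chains that set fibril diameter. Of 8 basement membrane chains, Col4a1 (1.75), Col4a2 (2.71) and Col4a5 (2.17) rose. Col6a1 (3.38), Col6a2 (3.61) and Col8a1 (2.49), which form microfibrils and short-chain networks, and the fibril-associated Col12a1 (2.83) and Col16a1 (4.17) completed the set. Called chains numbered 3, 2 and 3 without homeostatic replicate 1, 2 and 3 and 14, 11 and 7 without fibrotic-like replicate 1, 2 and 3. Col15a1 and Col18a1, whose products carry endostatin-type domains at basement membranes, had log2 fold changes of -0.29 and -0.25 (adjusted p = 0.468 and 0.628).

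**Figure D3:**
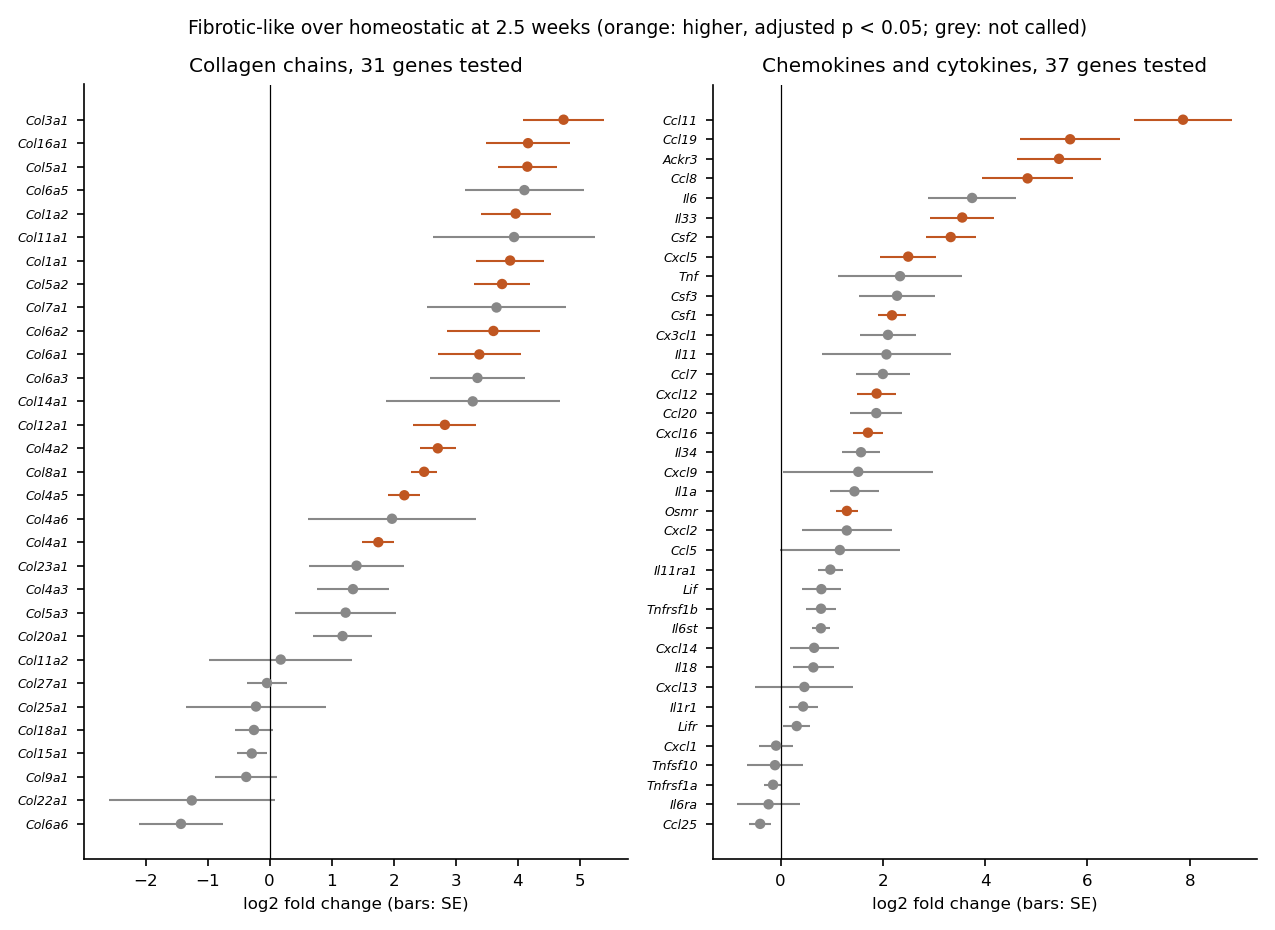
Log2 fold change with its standard error for 31 collagen chains (left) and 37 chemokines, cytokines and receptors (right), fibrotic-like over homeostatic at 2.5 weeks, with genes called higher in orange and genes not called in grey. Col3a1 and Ccl11 lead the panels at 4.74 and 7.87, and no gene was called lower.

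Ratios within a library, chosen after the values were seen, set collagen against mesenchymal receptors. Col1a1 per Pdgfra (CPM over CPM) was 26.6, 46.9 and 15.8 in the homeostatic and 16.1, 16.8 and 15.4 in the fibrotic-like libraries, so the groups overlapped and fibrotic-like values sat at the low end. Col1a1 per Pdgfrb was 27.4, 26.7 and 29.2 against 13.9, 23.1 and 27.4, also with overlap. The summed collagen chains per summed mesenchyme markers were 0.793, 0.917 and 0.750 against 1.27, 1.97 and 2.01, without overlap. Matrix or secreted genes made up most of that marker sum, at 291, 315 and 479 against 885, 1780 and 2059 CPM. The surface markers of the same list were at 33.8, 34.4 and 35.3 against 154, 410 and 407 CPM. A ratio of this kind depends on which markers are summed, and none was taken to the surface markers alone. With 3 libraries per group the smallest p of a two-sided exact permutation test is 0.1, so these ratios are given without a test.

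Of 28 genes that process procollagen edgeR called 11 higher and none lower, with a median of 1.47, and DESeq2 called 16 higher and 1 lower. Colgalt2, a collagen galactosyltransferase, lay below the homeostatic libraries in every fibrotic-like one (-2.50, adjusted p = 0.101). Of 5 crosslinking enzymes 3 were called. Loxl1, a lysyl oxidase of elastic fibres, differed by 5.04 (adjusted p = 0.0118), Loxl3 by 3.66, and Lox, the founding lysyl oxidase, rose from 2.81, 1.60 and 6.34 to 31.8, 188 and 34.8 CPM (log2 fold change 4.58 ± 0.93 (SE), adjusted p = 0.0413). Fibrotic-like replicate 2 was the highest for Lox and the groups did not overlap. Fkbp10 (4.32), a prolyl isomerase, Serpinh1 (3.29), the collagen chaperone HSP47, and P3h3 (4.22), of the prolyl 3-hydroxylase family, rose as well. Called genes of this group numbered 1, 1 and 1 without homeostatic replicate 1, 2 and 3 and 12, 10 and 6 without fibrotic-like replicate 1, 2 and 3.

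Noncollagenous matrix genes had the most calls of the 24 gene lists, 19 of 37 higher and none lower, with a median of 3.34. Thbs2 (chr17:14885761-14914528), the matricellular protein thrombospondin 2, was at 2.72, 2.38 and 2.30 CPM in homeostatic and 50.6, 58.6 and 43.2 CPM in fibrotic-like libraries. The spread within each group was small beside the gap between them (log2 fold change 4.36 ± 0.19 (SE), adjusted p = 0.000709). Sparc, a collagen-binding matricellular protein, was at 43.8, 53.1 and 51.8 against 357, 873 and 799 CPM (log2 fold change 3.77 ± 0.38 (SE), adjusted p = 0.00674). Bgn, the small proteoglycan biglycan, was at 51.5, 43.4 and 68.9 against 425, 669 and 658 CPM (log2 fold change 3.42 ± 0.29 (SE), adjusted p = 0.00481). For all 12 elastic-fibre genes tested the fibrotic-like libraries lay above the homeostatic ones, against 22.2% of all genes. Of the 12, 8 were called, among them Fbn1, the microfibril protein fibrillin 1 (4.16). Fn1, plasma and tissue fibronectin, which hepatocytes also make, was at 1461, 1936 and 1779.8 against 1815, 1779 and 1829.5 CPM (log2 fold change 0.07 ± 0.25 (SE), adjusted p = 0.885), and its groups overlapped. Calls in this list numbered 11, 8 and 8 without homeostatic replicate 1, 2 and 3 and 17, 17 and 12 without fibrotic-like replicate 1, 2 and 3.

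Among matrix proteases and their inhibitors 7 of 24 were higher, none was lower and the median was 3.04, or 2.05 without fibrotic-like replicate 2. Mmp2, gelatinase A of fibroblasts, was at 14.4, 11.6 and 23.0 CPM in homeostatic and 118, 394 and 499.8 CPM in fibrotic-like libraries (log2 fold change 4.37 ± 0.60 (SE), adjusted p = 0.0140). Mmp3 (chr9:7445822-7455975), the stromelysin that cleaves proteoglycans and activates other MMPs, was at 12.6, 37.9 and 23.0 against 568, 465 and 1167 CPM (log2 fold change 4.90 ± 0.58 (SE), adjusted p = 0.00996). Neither gene overlapped between the groups, and Mmp3 was highest in fibrotic-like replicate 3. Mmp13, the main interstitial collagenase of mice, differed by 6.02 with 10, 0 and 0 homeostatic counts, Mmp10 by 3.77 and Mmp23 by 2.78. On the inhibitor side, Timp2 was at 14.4, 10.1 and 10.7 against 77.9, 119.5 and 167 CPM (log2 fold change 3.37 ± 0.32 (SE), adjusted p = 0.00591), and Serpine2, the protease nexin that inhibits thrombin and plasminogen activators, at 56.6, 35.9 and 26.9 against 595, 443 and 347 CPM (log2 fold change 3.53 ± 0.36 (SE), adjusted p = 0.00674). Calls in this list numbered 3, 3 and 3 without homeostatic replicate 1, 2 and 3 and 6, 6 and 4 without fibrotic-like replicate 1, 2 and 3.

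Other inhibitors could not be read from this table. Timp1, Timp3 and Timp4, which lie within the spans of Syn1, Syn3 and Syn2, had 0 counts in all 27 libraries, as did Ogn and Aspn within Cenpp, Fgf7 within Fam227b and Cxcl10 within Art3. Of 908 genes whose whole span lies inside other genes, 721 (79.4%) had 0 counts in all 27 libraries, against 2269 of 15399 genes (14.7%) that overlap none. A value of 0 for such a gene is therefore no measure of its RNA.

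Of 30 genes of TGF-beta and BMP signalling, the pathway that drives matrix production, 8 were higher and none lower, with a median of 1.06. Receptors and co-receptors had 4 of 7 called, Tgfbr2 (1.60), Tgfbr3 (4.24), Acvrl1 (2.89) and Eng (3.08). Among ligands, Tgfb3 (2.07) and the activin subunit Inhbb (2.85) rose, while Tgfb1 was at 0.505, 0.255 and 0.186 against 0.237, 0.528 and 0.876 CPM (log2 fold change 0.78, adjusted p = 0.517) with overlap. Grem1, a secreted BMP antagonist, rose by 2.91. Ccn2, the connective tissue growth factor induced by TGF-beta and YAP, was at 121, 79.5 and 54.5 CPM in homeostatic and 295, 632 and 296 CPM in fibrotic-like libraries (log2 fold change 2.26 ± 0.43 (SE), adjusted p = 0.0350). Its groups were apart, with fibrotic-like replicate 2 the highest. Calls in this pathway numbered 2, 1 and 3 without homeostatic replicate 1, 2 and 3 and 8, 7 and 2 without fibrotic-like replicate 1, 2 and 3, and the median without fibrotic-like replicate 2 was 0.54.

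All 31 growth factors and binding proteins of mesenchyme had positive log2 fold changes, against 53.1% of all genes tested. Of the 31, 9 were called, and their median was 2.45 over all 31. Hgf, the hepatocyte growth factor (3.91), Fgf10, a mesenchymal ligand of epithelial FGF receptors (4.71), Vegfd (3.29), Wnt4 (2.81) and the Wnt amplifier Rspo3 (3.06) were the called ligands. Called binding proteins were Igfbp2 (3.61) and the Wnt inhibitors or modulators Sfrp1 (3.87), Dkk2 (3.96) and Dkk3 (3.70). Igf1, which stromal cells and hepatocytes make, had a log2 fold change of 2.85 (adjusted p = 0.0506). Nkd2, which inhibits Wnt signalling inside cells, was at 4.64, 4.62 and 4.29 against 79.1, 61.2 and 78.5 CPM and was, with Thbs2, among the most evenly separated genes (log2 fold change 4.01 ± 0.17 (SE), adjusted p = 0.000709). Of 12 Wnt target genes none was called at an adjusted p under 0.05 by edgeR, and 4 had an unadjusted p under 0.05. DESeq2 called 4 higher and 0 lower. The median of the 12 was 1.14, and 10 were positive. Beside 5.44% of all genes called higher, 0 calls among 12 genes cannot be told apart from that share. Calls among the growth factors numbered 2, 1 and 4 without homeostatic replicate 1, 2 and 3 and 9, 8 and 2 without fibrotic-like replicate 1, 2 and 3.

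Chemokines and cytokines were higher in 11 of 37 cases and lower in none, with a median of 1.52. Ccl11 (chr11:81948618-81953781), eotaxin, which attracts eosinophils, had the highest fold change of the list. It was at 0.194, 0.532 and 0.466 CPM in homeostatic and 18.5, 100.8 and 157 CPM in fibrotic-like libraries, and the lowest fibrotic-like value was far above the highest homeostatic one (log2 fold change 7.87 ± 0.96 (SE), adjusted p = 0.0106). Ccl11 per Pdgfra was 0.10, 0.357 and 0.106 against 0.891, 1.29 and 2.05, so its ratio to the receptor was also apart between the groups. Cxcl12, the stromal ligand of CXCR4, was at 38.8, 57.4 and 61.2 against 99.9, 217 and 261 CPM (log2 fold change 1.88 ± 0.38 (SE), adjusted p = 0.0411). Ackr3, a scavenger receptor of CXCL12, differed by 5.45, Ccl8 by 4.83, Ccl19, a ligand of CCR7 with 5, 1 and 1 homeostatic counts, by 5.66, Cxcl5 by 2.50 and Cxcl16 by 1.71. Cxcl16 has 77.6% of its span inside another gene.

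Cytokines of the same list included Il33, an alarmin (3.55), and the myeloid growth factors Csf1 (2.18) and Csf2 (3.33), all called higher, as was Osmr, the receptor of oncostatin M (1.30). Il6 had a log2 fold change of 3.75 (adjusted p = 0.0561). Cxcl1, a neutrophil chemokine, had one of -0.09 ± 0.33 (SE, adjusted p = 0.883), and its sign depended on the processing. Calls in this list numbered 2, 1 and 0 without homeostatic replicate 1, 2 and 3 and 14, 9 and 2 without fibrotic-like replicate 1, 2 and 3. The median was 1.26 without fibrotic-like replicate 2. The summed immune markers lay at 4.91 to 5.74 against 7.28 to 16.7 CPM, and their part in the chemokine values was not tested.

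Of the 20 genes the study names for fibrotic-like assembloids, 19 were tested, 11 were higher and none was lower. The study named some from this bulk experiment and others from single-cell data of the same kinds of assembloid, so the count is not independent evidence of a direction. Ddr2, a collagen receptor (3.79), and Axl, the receptor of GAS6, belonged to them. Cdh11, a cadherin of fibroblasts, had a log2 fold change of 3.16 (adjusted p = 0.0722), and Cd63 one of -0.24 (adjusted p = 0.582).

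The number of contractile myofibroblast genes called depended on the tool, 1 of 10 by edgeR and 5 of 10 by DESeq2, with 6 at an unadjusted p under 0.05. Acta2, α-smooth muscle actin, was at 2.99, 0.957 and 1.06 CPM in homeostatic and 9.78, 64.6 and 8.53 CPM in fibrotic-like libraries (log2 fold change 4.04 ± 0.98 (SE), adjusted p = 0.0653). All fibrotic-like libraries were above the homeostatic ones, with replicate 2 far above the other two of its group. Tagln, transgelin, had a log2 fold change of 2.37 (adjusted p = 0.116), and Cnn2, a calponin, was the contractile gene called by edgeR (3.00, adjusted p = 0.0107). Over the 16 myofibroblast genes 3 were higher by edgeR and 10 by DESeq2, with a median of 2.36 that was 1.36 without fibrotic-like replicate 2. Calls there numbered 1, 0 and 0 without homeostatic replicate 1, 2 and 3 and 4, 3 and 2 without fibrotic-like replicate 1, 2 and 3.

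YAP targets, genes that respond to cell stretch and stiff matrix through YAP and TEAD factors, were called in 6 of 9 cases. Ankrd1, an ankyrin-repeat cofactor, was at 36.002, 16.8 and 11.8 against 103, 99.8 and 124 CPM (log2 fold change 2.34 ± 0.41 (SE), adjusted p = 0.0277). Axl was at 4.93, 4.70 and 2.76 against 32.2, 51.6 and 35.6 CPM (log2 fold change 3.26 ± 0.31 (SE), adjusted p = 0.00591). Neither overlapped between the groups. The other called targets were Ccn2, Amotl1 (3.09), Amotl2 (1.05) and F3, tissue factor (2.88), and Ccn1 had a log2 fold change of 1.58 (adjusted p = 0.0542). Calls among the 31 Wnt, Notch and YAP genes, 7 in all with Dll1, a Notch ligand (2.08), numbered 3, 1 and 1 without homeostatic replicate 1, 2 and 3 and 5, 4 and 1 without fibrotic-like replicate 1, 2 and 3.

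The core of the TEAD motif, GGAATG or CATTCC on the other strand, was searched in the 250 bases before the start of each gene in RefSeq promoters of GRCm38.p6, a different build from that of the counts. Of 9 listed YAP targets with a promoter entry 6 held it, against 13.1% of 10545 tested genes, 15.8% of 538 genes called higher and 12.6% of 32851 promoters in all. A match is a description of letters and not of binding. The targets were listed because they are YAP targets, so their share is no test of these libraries. The 3 called targets with a match are shown, with the motif in capitals, 5′ to 3′ on the strand of the gene. Ankrd1 (chr19:36119845-36120094, minus strand) holds it 210 and 123 bases before the start, Amotl2 (chr9:102717554-102717803, plus strand) 65 bases and Axl (chr7:25788734-25788983, minus strand) 233 bases before it.
Ankrd1: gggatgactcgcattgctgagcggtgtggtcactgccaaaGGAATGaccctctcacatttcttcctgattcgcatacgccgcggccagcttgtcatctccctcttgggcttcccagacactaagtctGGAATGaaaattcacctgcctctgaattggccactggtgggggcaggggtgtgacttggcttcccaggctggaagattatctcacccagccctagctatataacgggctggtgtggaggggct
Amotl2: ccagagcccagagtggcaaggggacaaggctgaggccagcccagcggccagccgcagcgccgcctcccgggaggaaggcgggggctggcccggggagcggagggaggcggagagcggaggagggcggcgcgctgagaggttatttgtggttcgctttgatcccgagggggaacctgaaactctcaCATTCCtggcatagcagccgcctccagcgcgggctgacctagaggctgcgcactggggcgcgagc
Axl: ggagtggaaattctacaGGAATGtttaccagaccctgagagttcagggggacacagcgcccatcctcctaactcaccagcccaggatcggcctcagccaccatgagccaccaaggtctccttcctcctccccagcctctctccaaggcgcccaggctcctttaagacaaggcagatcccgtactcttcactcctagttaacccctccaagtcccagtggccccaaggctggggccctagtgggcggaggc
The called targets Amotl1 and F3 hold no match in this window, and the called Ccn2 has no promoter entry. Ccn1, Ajuba and Crim1 hold a match and were tested but not called, so a match did not go with the call.

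Cholangiocytes, the duct epithelium of the mixture, were plated in equal number in both groups. Of 36 cholangiocyte markers tested, 7 were higher, none was lower and the median was 1.72, but 0.82 without fibrotic-like replicate 2. Krt7 (chr15:101308924-101328194), a duct keratin, was at 78.9, 32.2 and 32.3 CPM in homeostatic and 254, 1010.1 and 336 CPM in fibrotic-like libraries (log2 fold change 3.48 ± 0.67 (SE), adjusted p = 0.0357). Krt19, its usual partner, was at 66.8, 47.6 and 38.2 against 207, 1718 and 199.7 CPM (log2 fold change 3.80 ± 0.94 (SE), adjusted p = 0.0703). Replicate 2 was the highest fibrotic-like library for both, and neither keratin overlapped between the groups. Epcam, an epithelial adhesion molecule, had a log2 fold change of 3.66 (adjusted p = 0.0669), Sox9, a ductal transcription factor, one of 0.99 (adjusted p = 0.101), and Spp1, osteopontin, one of -0.36 (adjusted p = 0.615).

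The other called duct genes were Cldn4, a tight-junction claudin (2.58), the chloride channel Ano1 (2.86), the cilium genes Pkd2 (0.89) and Bicc1 (1.90), the apical linker Ezr (2.26) and Anxa13 (2.96). Calls in the list numbered 0, 0 and 0 without homeostatic replicate 1, 2 and 3 and 7, 10 and 0 without fibrotic-like replicate 1, 2 and 3. The summed level of the list was 11317, 14192 and 12787 CPM in the homeostatic and 14506, 18636 and 11802 CPM in the fibrotic-like libraries, and the groups overlapped. Secreted or mucin genes were most of the homeostatic sum and overlapped, at 6605 to 10500 against 6381.5 to 9120 CPM. The other parts of the list did not overlap. Keratins ran from 1677 to 3921 against 3981 to 8008 CPM. Krt7 and Krt19 were a small part of the homeostatic keratin sum, most of which came from the other listed keratins, Krt8, Krt18 and Krt23. Transcription factors ran from 120 to 155 against 176 to 636 CPM. Adhesion genes ran from 317 to 541 against 683 to 2170 CPM, and transport and cilium genes from 173 to 224 against 410 to 903 CPM.

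Cell adhesion genes were higher in 12 of 43 cases and lower in none, with a median of 1.94. For all 10 laminin chains, basement membrane proteins, the fibrotic-like libraries lay above the homeostatic ones, against 22.2% of all genes. Lama1 (5.99, with 11, 0 and 1 homeostatic counts), Lama4 (3.17) and Lamb1 (4.02) were called. Called integrins included Itgb8 (4.46) and Itgb6 (2.38), whose αv dimers release latent TGF-beta, and the laminin-binding Itga3 (1.98) and Itgb4 (3.05). Cdh13 (3.32) and the hyaluronan receptor Cd44 (1.69) rose too. Calls numbered 3, 2 and 6 without homeostatic replicate 1, 2 and 3 and 16, 14 and 5 without fibrotic-like replicate 1, 2 and 3, and the median was 1.24 without fibrotic-like replicate 2.

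All 35 cell cycle genes had positive log2 fold changes with a median of 1.87, and for 25 the fibrotic-like libraries lay above the homeostatic ones. Over all genes tested these shares were 53.1% and 22.2%. At an adjusted p under 0.05 edgeR called 4, voom with quality weights 7 and DESeq2 23, and 26 had an unadjusted p under 0.05 by edgeR. The 4 were Ccnd1, the G1 cyclin (2.29), Mcm5 of the replication helicase (2.10), Cdc20 of the anaphase-promoting complex (2.31) and the mitotic kinase Aurka (1.30). Mki67, a proliferation marker, was at 1.79, 0.617 and 1.46 against 3.70, 14.5 and 5.06 CPM (log2 fold change 2.59 ± 0.66 (SE), adjusted p = 0.0744), without overlap and highest in fibrotic-like replicate 2. Calls numbered 0, 0 and 0 without homeostatic replicate 1, 2 and 3 and 5, 1 and 0 without fibrotic-like replicate 1, 2 and 3. Which of the cell types in the mixture cycled cannot be told apart in bulk RNA.

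Of 41 genes of cell death and p53 targets, 3 were higher, Pmaip1 (1.74), a BH3-only protein, Plk2 (1.16), a p53-responsive kinase, and Ripk3 (2.88), the necroptosis kinase, and none was lower. That share, 7.32%, was near the 5.44% called higher among all genes, and their median was 0.21 beside 0.04. DESeq2 called 9 higher and 1 lower. Calls numbered 0, 0 and 0 without homeostatic replicate 1, 2 and 3 and 2, 2 and 0 without fibrotic-like replicate 1, 2 and 3. Among 30 immediate early and stress genes edgeR called Phgdh, of serine synthesis (0.81). That share, 3.33%, was below the 5.44% of all genes, and the median was -0.07. DESeq2 called 7 of the 30 higher and 1 lower, and 12 had an unadjusted p under 0.05 by edgeR. The median was 1.04 for 12 immediate early genes, 11 of them positive. For 12 genes of the ATF4 and unfolded protein response it was -0.62, with 10 negative. Over all genes tested 53.1% were positive.

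Hepatocyte lists had medians below 0, in an experiment where 0.0824% of all genes were called lower. Alb, albumin, was at 8896, 9872 and 6861 CPM in homeostatic and 9899, 3672 and 15523 CPM in fibrotic-like libraries (log2 fold change 0.18 ± 0.60 (SE), adjusted p = 0.865), with the lowest and the highest value both in the fibrotic-like group. Hnf4a, the hepatocyte nuclear receptor, was at 174, 192 and 203 against 159, 99.3 and 159.8 CPM (log2 fold change -0.45, adjusted p = 0.258). Its fibrotic-like CPM values were all below the homeostatic ones, while the sign of its fold change turned on the TPM scale. Of 56 metabolic enzymes none was called either way by edgeR, 9 had an unadjusted p under 0.05 and DESeq2 called 0 higher and 5 lower. Their median was -0.76, 46 had negative log2 fold changes, and in 23 the fibrotic-like libraries lay below the homeostatic ones. Over all genes tested 53.1% were positive, and in 15.9% the fibrotic-like libraries lay below. Their summed level was 21967, 18637 and 21592 CPM in the homeostatic and 16409, 2860.3 and 12430.0 CPM in the fibrotic-like libraries, so fibrotic-like replicate 2 was by far the lowest, and without it the median was -0.42.

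Of 41 plasma protein genes, Apoa5 was lower and the coagulation factor F11 higher (1.19), with a median of -0.76 and, without fibrotic-like replicate 2, -0.35. Of 29 bile acid genes edgeR called 2 higher and none lower, a share of 6.9% near the 5.44% of all genes, and DESeq2 called 3 higher and 1 lower. The 2 were Cyp7b1, the oxysterol hydroxylase of the alternative pathway, at 20.1, 15.5 and 23.8 against 45.1, 63.2 and 88.2 CPM (log2 fold change 1.73 ± 0.29 (SE), adjusted p = 0.0231), and Gpbar1, the bile acid receptor TGR5 found on cholangiocytes (3.09). The median of the bile acid genes was -0.78 and -0.35 without that library. Of 19 hepatocyte transcription factors none was called by edgeR, 7 had an unadjusted p under 0.05 and DESeq2 called 1 higher and 1 lower. Their median was -0.55, and -0.39 without fibrotic-like replicate 2, but -0.038 on log2(TPM + 1) and -0.055 on log2(TPM + 0.1), where 7 of 18 were positive. The median of all genes tested was 0.40 and 0.46 on those scales, beside 0.04 in the main fit.

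Of 25 acute phase genes Saa3, the serum amyloid A made outside hepatocytes, was called, at 75.0, 73.0 and 158 CPM in homeostatic and 346, 1238 and 1427 CPM in fibrotic-like libraries (log2 fold change 3.30 ± 0.62 (SE), adjusted p = 0.0329). Saa1, the hepatocyte form, was at 3619, 4450.0 and 11449 against 2281, 93.4 and 2518 CPM (log2 fold change -1.996 ± 1.09 (SE), adjusted p = 0.289). All fibrotic-like values of Saa1 were below the homeostatic ones and replicate 2 was the lowest. The median of the list was -0.66, and -0.28 without fibrotic-like replicate 2.

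**Figure D4:**
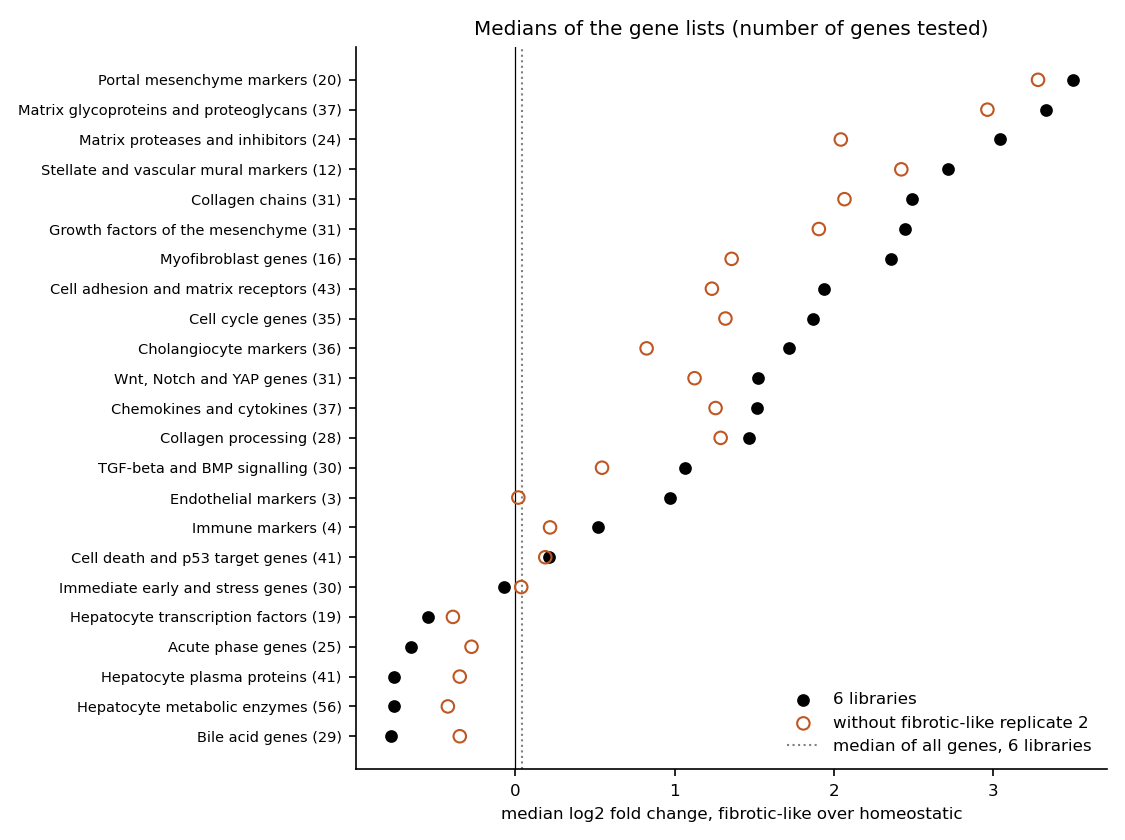
Median log2 fold change (fibrotic-like over homeostatic, 2.5 weeks) of 23 gene lists with the number of genes tested, over all 6 libraries (black) and without fibrotic-like replicate 2 (open orange), and the median of all genes as a dotted line at 0.04. Mesenchyme, matrix and protease lists lie highest, hepatocyte lists lie below 0, and leaving out that library moves nearly every list toward 0.

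Genes called lower by edgeR numbered 11 of 13355, while DESeq2 called 385 lower. In 15.9% of genes all fibrotic-like libraries lay below all homeostatic ones. Without any 1 homeostatic library, or without fibrotic-like replicate 3, edgeR called 0 lower. Apoa5 (chr9:46179931-46183217), an apolipoprotein of the hepatocyte that lowers plasma triglycerides, was at 459.9, 461 and 817 CPM in homeostatic and 191, 105 and 60.6 CPM in fibrotic-like libraries (log2 fold change -2.29 ± 0.47 (SE), adjusted p = 0.0426). Pigr (chr1:130754397-130779986), the receptor that carries IgA across epithelia into bile, was at 172, 158 and 156 against 43.8, 73.7 and 69.0 CPM (log2 fold change -1.38 ± 0.22 (SE), adjusted p = 0.0212). Leap2, a liver-made antagonist of the ghrelin receptor, was at 124, 171 and 165 against 55.5, 27.5 and 50.3 CPM (log2 fold change -1.79 ± 0.29 (SE), adjusted p = 0.0228), though 60.3% of its span lies inside Aff4. None of the 3 overlapped between groups. Cyp4a32, a fatty acid hydroxylase (-2.21), the kinesin Kif21a (-1.003), Smpdl3a, a phosphodiesterase (-0.91), the choline dehydrogenase Chdh (-0.89), Tmem30b, a flippase subunit (-0.72), Tcf24, Ppp1r42 and Nup210 were the remaining lower genes.

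Among genes averaging 3 or more on the log2 CPM scale, Olfm4, a secreted glycoprotein of epithelial progenitors, had the largest fitted difference. It had 3 counts in homeostatic replicate 1 and none in replicates 2 and 3, against 9.46, 237 and 2.43 CPM in the fibrotic-like libraries, so no fold is given. Itm2a, a membrane protein of mesenchymal lineages, was at 2.13, 1.96 and 1.15 against 40.3, 350.3 and 236 CPM (log2 fold change 6.89 ± 0.89 (SE), adjusted p = 0.0121). Ifitm1 (7.01), an interferon-induced membrane protein, Medag (6.82), Abi3bp (6.09), a matrix protein, the aggrecanase Adamts5 (5.82), the carboxypeptidase Cpz (5.71), which binds Wnt, and the adhesion molecule Chl1 (5.25) were, with Ccl11 and Ackr3, the other genes of the 10 highest.

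The same groups at 1 week were used to ask whether the difference had changed with time. In a fit of all 12 assembloid libraries edgeR called 0 of 14253 genes at 1 week in either direction (0% higher, 0% lower), with 2012 at an unadjusted p under 0.05, whereas DESeq2 called 642 higher and 225 lower. Homeostatic replicate 2 of 1 week stood apart with 8463 genes detected, and in fits of the 1-week libraries alone edgeR called 0 genes when it or any other library was left out. Genes at an unadjusted p under 0.05 numbered 553 of 13448 with all 6 libraries of 1 week and 3606 of 14172 without homeostatic replicate 2. They numbered 275 to 762 when another library was left out. The change of the difference between 1 and 2.5 weeks was called for 0 genes (0%) by edgeR and for 0 by DESeq2, with 278 and 455 at an unadjusted p under 0.05. Of the 727 genes higher at 2.5 weeks 557 (76.6%) had a positive log2 fold change at 1 week, against 54.8% of all genes tested, and all 11 lower genes had a negative one, against 45.2%.

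At 1 week Pdgfra was at 0.917, 1.12 and 1.51 CPM in homeostatic and 29.8, 118 and 6.33 CPM in fibrotic-like libraries, and Ccl11 at 0.491, 0 and 1.12 against 74.0, 267 and 4.002 CPM, both without overlap. Col1a1 was at 38.4, 272 and 73.3 against 741, 1514 and 68.7 CPM and Krt7 at 20.8, 3256 and 201 against 431, 96.8 and 2709 CPM, both with overlap. Apoa5 was at 620.1, 33.9 and 300.1 against 25.8, 20.6 and 25.0 CPM, already below all homeostatic libraries. The mesenchyme marker median at 1 week was 3.04, and 3.03 without homeostatic replicate 2. The cholangiocyte median was 0.10, and 1.58 without that library.

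**Figure D5:**
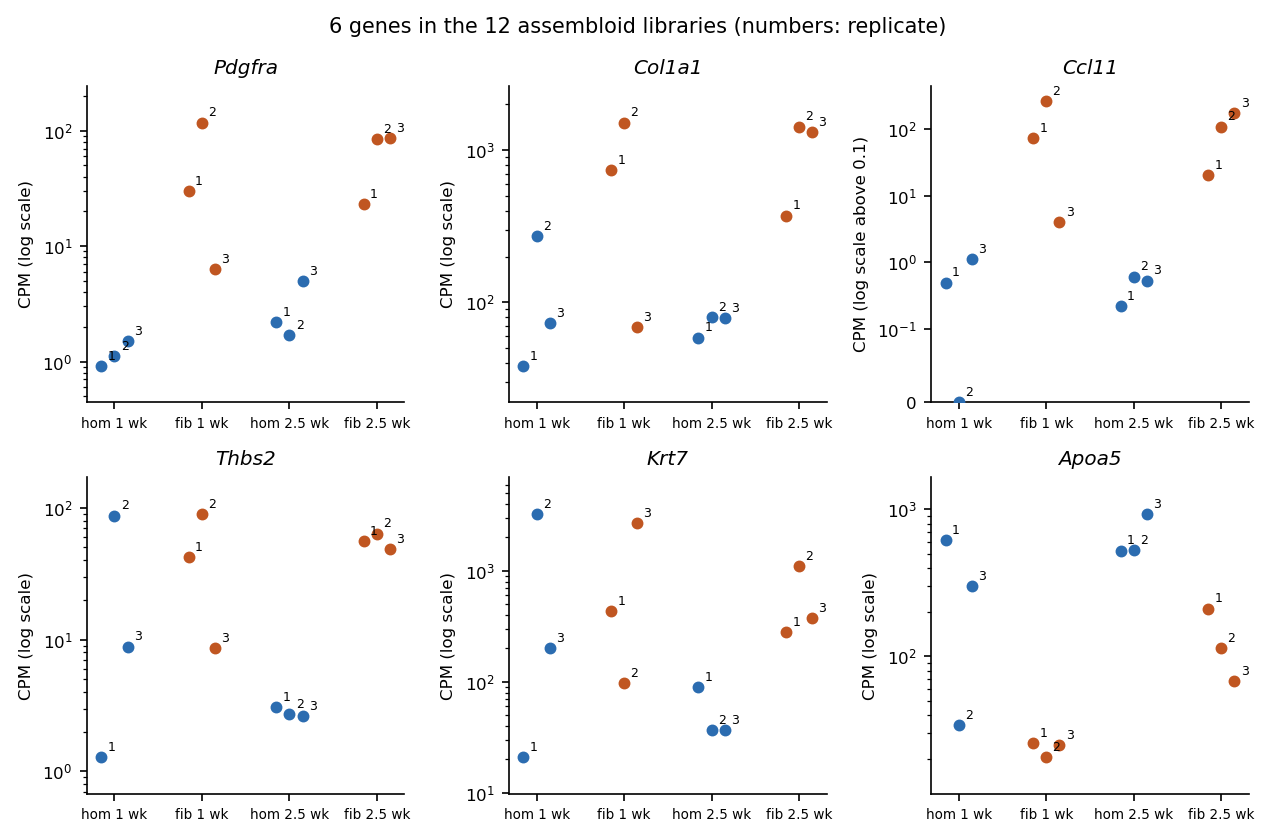
CPM (log axes, the Ccl11 axis linear below 0.1) of 6 genes in the 12 assembloid libraries of 1 and 2.5 weeks, homeostatic (hom) in blue and fibrotic-like (fib) in orange, with the replicate number beside each point. CPM here was scaled over 12 libraries, so values of 2.5 weeks differ slightly from those of the 6-library scaling. Pdgfra and Ccl11 are apart between the groups at both times, whereas Col1a1, Thbs2 and Krt7 overlap at 1 week.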

How the data were processed

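The deposited table held read counts per gene, which the authors made with STAR and featureCounts on GRCm39 from poly(A) RNA sequenced by SMARTseq2, and TPM values the authors derived from them. It had 21848 genes and 2 reporter sequences. Entries of 10 further libraries in the table were not used. Deposited gene lengths lay within 5% of the whole gene span for 80.8% of matched genes, so counts and TPM may include intronic reads. Groups came from the labels. Genes were kept by edgeR's filterByExpr (minimum count 10, minimum total 15), scaled by TMM and tested with the quasi-likelihood test of edgeR 4.0.16 (R 4.3.3) on 6 libraries, with Benjamini-Hochberg adjustment over all genes and a threshold of 0.05. Standard errors came from the fitted model. Fold changes and adjusted p-values are edgeR's unless another tool is named. The 1-week difference and its change came from a fit of 12 libraries. The code of the fit was run on simulated counts with the same dispersion for every gene, changes in both directions and no outlying library. Those settings differ from these libraries, so the run does not show how the fit behaves on them. Members and the 24 gene lists were chosen with earlier results of these data known. Named were genes the study names, called or defining genes of each list, and the 10 highest and 8 lowest called genes with average log2 CPM of at least 3, no overlap and a gene name. A further part of the rule, for genes whose difference changed with time, named none. Alternatives were DESeq2 1.42.0, voom in limma 3.58.1, limma on log2(TPM + 1) or log2(TPM + 0.1), other scalings and filters, a replicate block and leaving out each library. Depth limits precision through counting error only.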

Additional observations from a re-analysis of the deposited data

How the results depend on the processing

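The direction of the difference, with more calls higher than lower, held under every alternative that made calls, but the number of calls did not. Against 738 genes, DESeq2 called 2151 (1766 higher, 385 lower), limma on log2(TPM + 1) 375, limma on log2(TPM + 0.1) 475, the fit of 12 libraries 0, and an adjusted p under 0.1 gave 1447. Leaving out 1 library gave 100 to 779 calls. RLE scaling, no filter, a minimum of 10 counts in every library, voom with quality weights and a fold minimum stayed within 1.5 times. The replicate block called 398 genes (393 higher). Same-numbered libraries correlated at 0.0221, 0.196 and 0.211 in their deviations, 2 of 3 above 0.1, so the numbers were not taken to pair the libraries. Of 184 named genes, 54 lost their call with the block, 110 to 120 without 1 homeostatic library and 20 to 97 without 1 fibrotic-like library. Signs turned for genes that had not passed the test: on log2(TPM + 1) and log2(TPM + 0.1) Cd63 was 0.29 and 0.29, Cxcl1 0.38 and 0.38, Hnf4a 0.063 and 0.066 and Spp1 0.17 and 0.17. Cxcl1 was 0.083 with voom, 0.074 without homeostatic replicate 2 and 0.19 without fibrotic-like replicate 2, within a range of -0.34 to 0.19 when 1 library was left out. Alb was -0.019 with the replicate block and ranged from -0.36, without fibrotic-like replicate 3, to 0.57, and Fn1 from -0.043, without homeostatic replicate 1, to 0.15. On log2(TPM + 1) and log2(TPM + 0.1) the median of all genes tested was itself 0.40 and 0.46, beside 0.04 as reported. The cause of the turned signs was not tested. The change between times stayed at 0 calls under every alternative run, and 13 to 16 lists, 15 as reported, had medians above 1.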

Other observations

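Transcription factors of mesenchymal cells, a group put together after the values were seen, were called higher in 14 of 20 cases with none lower and a median log2 fold change of 3.93. Zeb2, a zinc finger of fibroblasts, was at 2.97, 2.36 and 2.86 CPM in homeostatic replicates 1, 2 and 3 and at 22.01, 31.8 and 31.5 CPM in fibrotic-like replicates 1, 2 and 3 (log2 fold change 3.38 ± 0.23 (SE), adjusted p = 0.00290). Its groups were far apart beside the spread within them. Snai1, a repressor of epithelial cadherin, was at 0.854, 0.808 and 2.55 against 10.4, 24.0 and 27.7 CPM (3.90 ± 0.61 (SE), adjusted p = 0.0191). Nr2f2, a nuclear receptor that other cell types also express, had a smaller difference (1.12 ± 0.19 (SE), adjusted p = 0.0235). The related Zeb1 and Snai2 had log2 fold changes of 0.63 and 0.65 (adjusted p = 0.156 and 0.274).

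Of 10 genes of the Hedgehog pathway tested, also grouped after the values were seen, 4 were higher and none lower. Gli3, a transcription factor of the pathway, was at 0.213, 0.191 and 0 against 1.70, 4.50 and 5.16 CPM (log2 fold change 4.72 ± 0.98 (SE), adjusted p = 0.0434). The co-receptors Boc (3.43) and Gas1 (4.34) and the factor Gli2, at 0.0388, 0 and 0 against 0.905, 3.21 and 7.77 CPM, were the others. Ptch1, the receptor and a target of the pathway, had a log2 fold change of -0.18 (adjusted p = 0.650), and Gli1 had 0, 0 and 0 against 0, 3 and 18 counts.

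Of 16 semaphorins tested, guidance ligands and receptors also grouped after the values were seen, 6 were higher and none lower with a median of 1.87. Among all genes 5.44% were called higher. Sema3c was at 20.7, 11.1 and 9.63 against 62.4, 78.0 and 71.3 CPM (log2 fold change 2.35 ± 0.31 (SE), adjusted p = 0.0126). Msln, mesothelin, a surface protein of mesothelial cells and of portal fibroblasts in biliary injury, was at 54.6, 33.1 and 19.1 against 228, 805 and 257 CPM (3.59 ± 0.65 (SE), adjusted p = 0.0291), highest in fibrotic-like replicate 2. Of the other 4 mesothelial genes tested, grouped after the values were seen, none was called. That count is too small to set apart from the 5.44% of all genes called higher. Wt1 had a log2 fold change of 5.37 (adjusted p = 0.0962) and Krt19, also listed as a duct keratin, 3.80 (adjusted p = 0.0703), both without overlap. Upk1b had one of 2.15 (adjusted p = 0.314) and Lrrn4 one of -1.57 (adjusted p = 0.484), both with overlap.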
